A study of Mus with 14 samples.

Results

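Bone marrow stem and progenitor cells from mice labelled Dnmt3a were compared with those of the MxCre control mice, which uses 7 of the 14 libraries of the study. Members were chosen by group label alone, and they comprise 4 Dnmt3a mice and 3 MxCre mice, 1 library of droplet-based 3′ single-cell RNA sequencing per mouse. The study as a whole asks how receptors of tumour necrosis factor alpha act in Dnmt3a-mutant clonal haematopoiesis, and its other libraries, labelled Dnmt3a;Tnfr1KO and Dnmt3a;Tnfr2KO, enter here for the estimate of spread and where a value is set beside them. In both groups the sorted cells were Lin-Kit+CD45.2+, that is, donor-derived cells without surface markers of mature lineages and with the receptor Kit. They came from secondary recipients, aged and lethally irradiated CD45.1+ hosts harvested 20 weeks after transplant. Their primary donors had been competed 1:1 with CD45.1+ marrow and treated with poly(I:C) 1 month after the primary transplant. Poly(I:C) induces interferon and thereby the Mx1 promoter, which drives Cre recombinase in blood cells and also in other tissues. The donor-derived cells of the MxCre group therefore carried the recombinase and were exposed to the same inducer at the primary stage, before the secondary transplant. The kind of Dnmt3a allele is not given in the sources used here. The labels do not tie recipients to primary donors, so recipients with the same primary donor are possible, and p-values measure only the spread between these mice.

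DNMT3A is an enzyme that places new methyl groups on cytosines in DNA. In blood stem cells its loss is known to favour self-renewal over differentiation, and mutations in it are the most frequent cause of clonal haematopoiesis, the outgrowth of the progeny of a single stem cell with age. Stem cells give rise to multipotent progenitors and then to progenitors restricted to granulocytes, monocytes, megakaryocytes, erythrocytes, basophils and mast cells, or lymphocytes, each with its own marker genes.

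The 7 libraries held 62416022 to 160599824 UMIs (unique molecular identifiers, 1 per captured transcript), and 1924 to 5872 cells per mouse remained after filtering. Dnmt3a mouse 1 stood apart in that 5138 of its 7257 barcodes held fewer than 1000 UMIs, while its kept cells were the deepest, with a median of 39561 UMIs. Dnmt3a mouse 4 had the shallowest kept cells, with a median of 11275 UMIs. At most 17 kept barcodes were shared by any pair of libraries. The libraries also differed in a property that follows the groups. Rps29, which encodes a small ribosomal protein, stood at 9618, 7765 and 6690 CPM (UMIs scaled to 1000000 per library) over all cells of the MxCre mice and at 2931, 3758, 2616 and 2434 CPM in the Dnmt3a mice. The groups do not overlap, and in stem cell-like cells Dnmt3a;Tnfr2KO mouse 4 was alone among the other 7 libraries in the range of the Dnmt3a mice (3374 CPM against 6065 to 10750 CPM). Counts of called genes are therefore given also from a fit with the Rps29 level of the library as a covariate, an alternative chosen after seeing the data. In that fit the library property and the genotype are largely confounded and cannot be told apart.

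Cells fell into 30 clusters, and clusters were named after cell classes by marker genes. The sort keeps mainly immature cells, and most cells belonged to stem cell-like, early multipotent, granulocyte, monocyte, megakaryocyte and erythroid progenitor-like classes. Megakaryocyte progenitor-like cells, which express the platelet genes Pf4 and Itga2b, made up 15.5%, 15.7% and 26.1% of the cells of MxCre mice 1 to 3. In Dnmt3a mice 1 to 4 they made up 9.30%, 13.3%, 2.15% and 0.646%. Every Dnmt3a mouse lay below every MxCre mouse, and the means were 19.1% ± 6.07 (SD, n = 3) and 6.36% ± 5.99 (n = 4). The exact two-sided permutation test gave p = 0.0571, the smallest value that 3 against 4 mice allow, and 0.495 after Benjamini-Hochberg adjustment over 13 classes. With a finer clustering (Leiden resolution 2) the groups overlapped, with a difference of -9.03 percentage points (exact permutation p = 0.1143). Erythroid progenitor-like cells had shares of 20.0%, 15.8% and 10.4% in MxCre and 8.89%, 14.7%, 2.21% and 5.48% in Dnmt3a, so that the groups overlapped (exact permutation p = 0.114). Shares are taken over all kept cells of a mouse, unnamed ones included, so a high share of any class lowers the others. In Dnmt3a mouse 1 39.1% of cells were unnamed. In Dnmt3a mouse 4 36.2% were B-lymphoid progenitor-like and 15.5% maturing neutrophil-like. The part of this in the differences of shares was not tested.

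The stem cell-like class joined a cluster of 6884 cells and another of 3436 cells over all libraries. Hlf and Mecom were among the leading genes of both, and Ly6a among those of the larger only. The smaller had its highest mean marker score for the early multipotent progenitor set. Stem cell-like cells held 17.98%, 17.7% and 31.7% of MxCre cells and 20.0%, 20.0%, 17.5% and 3.89% of Dnmt3a cells. Dnmt3a mouse 4 was low, Dnmt3a mice 1 and 2 lay within the range of the controls and Dnmt3a mouse 3 just below it (exact permutation p = 0.457). With resolution 2 the difference was -8.43 percentage points and the groups did not overlap (exact permutation p = 0.0571). The class at resolution 2 includes a cluster led by Procr that is described below, so the share of that cluster and this difference are not separate findings. Monocyte progenitor-like cells held 11.5%, 10.9% and 6.30% of MxCre cells and 8.264%, 14.7%, 22.9% and 8.263% of Dnmt3a cells. They averaged 9.57% ± 2.85 (SD, n = 3) and 13.5% ± 6.95 (n = 4), and the difference of 3.96 percentage points was 0.827 without Dnmt3a mouse 3 and 5.71 without Dnmt3a mouse 1 or 4, and granulocyte progenitor-like cells 12.3% ± 3.78 and 12.04% ± 7.07. Neither difference exceeded the spread between mice (exact permutation p = 0.457 and 1). Clusters without a name held 6.12% ± 1.89 of cells in MxCre and 17.1% ± 14.8 in Dnmt3a. Dnmt3a mouse 1 had the highest such share, 39.1%, and it supplied 86% of a cluster led by replication-dependent histone genes.

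B-lymphoid progenitor-like cells, which express the surrogate light chain genes Vpreb1, Vpreb3 and Igll1, numbered 0, 1 and 8 in the MxCre mice and 60, 4, 83 and 1963 in the Dnmt3a mice. Dnmt3a mouse 4 alone accounts for most of these cells, which were 36.2% of its total, and the 4 cells of Dnmt3a mouse 2 lie within the range of the controls. By share the groups overlapped (exact permutation p = 0.114). A quasi-likelihood test of the cell numbers with edgeR gave a log2 difference of 7.11 with a Benjamini-Hochberg adjusted p of 0.0187, and 4.42 with an adjusted p of 0.0241 without Dnmt3a mouse 4. The same mouse held 15.5% maturing neutrophil-like cells, against 0.364% to 0.548% in the other Dnmt3a mice and 1.94% to 9.22% in MxCre. Without Dnmt3a mouse 4, maturing neutrophil-like cells were fewer in Dnmt3a by -3.42 on the log2 scale (edgeR quasi-likelihood test, adjusted p = 0.0241), while with it the log2 difference was -0.14. The edgeR test of megakaryocyte progenitor-like cells gave -1.59 and an adjusted p of 0.395.

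**Figure D1:**
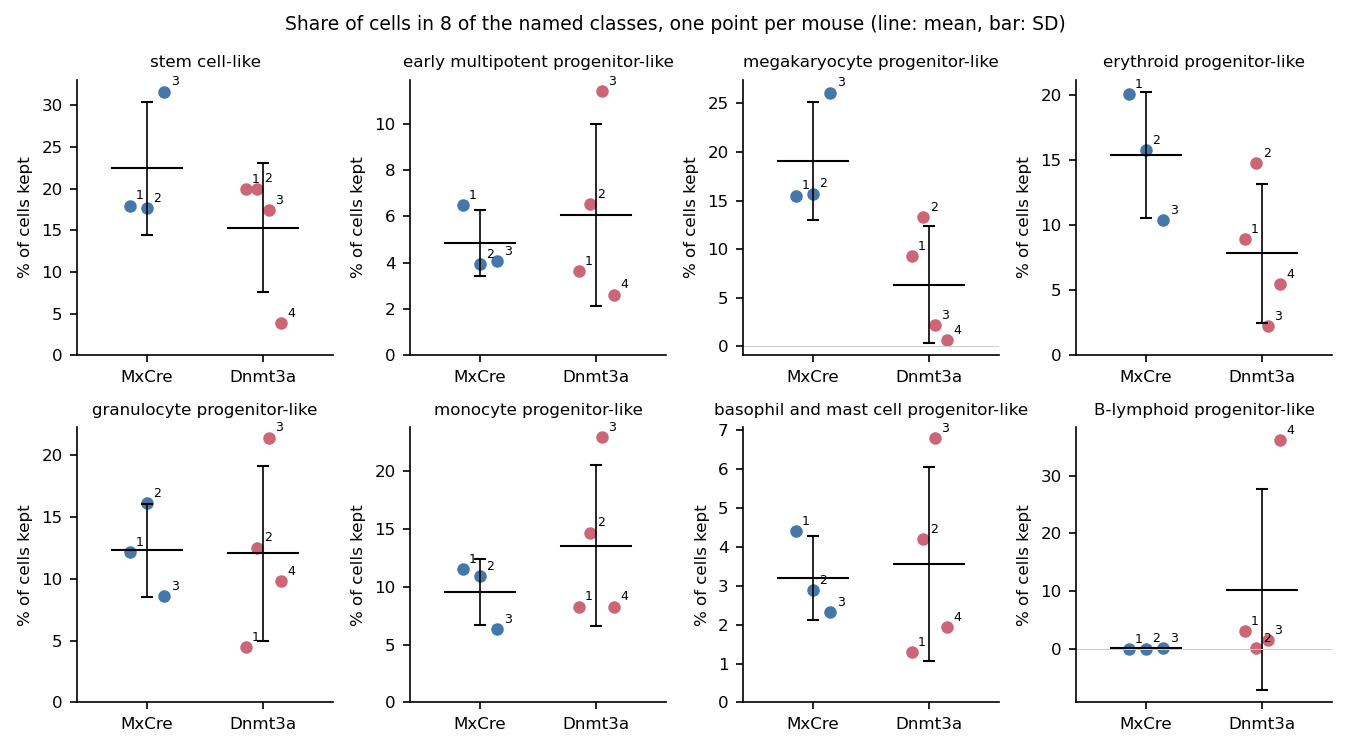
Share of kept cells (percent, linear axis) in 8 cell classes, with 1 point per mouse, a line at the group mean and a bar of 1 SD, for 3 MxCre and 4 Dnmt3a mice. Megakaryocyte progenitor-like shares of the Dnmt3a mice (0.646% to 13.3%) lie below those of the MxCre mice (15.5% to 26.1%), and the B-lymphoid progenitor-like share of 36.2% belongs to Dnmt3a mouse 4.

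At resolution 2 the stem cell-like class contained a cluster whose leading genes included Hlf, Ly6a, Myl10, Iigp1, Procr, Mycn, Mecom and Ltb. Procr encodes the endothelial protein C receptor, a surface marker of the most primitive stem cells. Of the stem cell-like cells as named at resolution 1, this cluster held 10.8%, 23.5% and 26.6% in MxCre mice and 1.30%, 5.94%, 3.77% and 7.11% in Dnmt3a mice. The shares do not overlap between groups. The genes that define the cluster also differed between groups within stem cell-like cells, so its size and their expression are not separate findings, and no test was made of it.

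The transcript of Dnmt3a itself was not called lower in any class tested. Its level over all cells was 22.3, 22.9 and 28.2 CPM in MxCre and 32.9, 28.0, 29.6 and 31.4 CPM in Dnmt3a, a log2 difference of 0.32 with an adjusted p of 0.0812 (edgeR quasi-likelihood test, as for all adjusted p-values of genes here). Counts at the 3′ end need not fall when a gene carries a mutation, so this level does not check the label. In granulocyte progenitor-like cells Dnmt3a transcripts rose from 19.3, 18.9 and 21.2 CPM to 33.1, 24.5, 25.6 and 27.02 CPM (log2 difference 0.47 ± 0.11 SE, adjusted p = 0.0301). In monocyte progenitor-like cells they rose from 18.4, 17.8 and 20.2 CPM to 26.5, 25.4, 24.5 and 27.4 CPM (0.46 ± 0.10, adjusted p = 0.0290). In both classes the groups do not overlap. Both calls ended without any 1 of the 3 MxCre mice or without Dnmt3a mouse 4 (adjusted p 0.0527 to 0.151 in granulocyte and 0.0548 to 0.153 in monocyte progenitor-like cells) and with the Rps29 covariate (adjusted p = 0.226 and 0.263). They also ended with only the 2 groups in the fit (adjusted p = 0.0838 and 0.0723), and the monocyte call with the replicate block (0.0505). In stem cell-like cells the values were 33.8, 35.05 and 36.8 CPM against 46.7, 39.7, 42.8 and 50.03 CPM (adjusted p = 0.0645, and 0.03437 without Dnmt3a mouse 2). In megakaryocyte progenitor-like cells the log2 difference was -0.10 (30.8, 37.05 and 42.2 CPM against 36.2, 34.7, 30.4 and 34.5 CPM, adjusted p = 0.682). In erythroid progenitor-like cells it was -0.016 (15.2, 17.4 and 15.7 CPM against 19.6, 20.3, 19.45 and 1.685 CPM, adjusted p = 0.991), and in both classes the groups overlapped.

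Summed over all cells, 386 of 15632 genes were called at an adjusted p below 0.05, 2.47% of those tested, 204 of them higher (1.31%) and 182 lower (1.16%) in Dnmt3a. In such sums, fewer cells of a type and less RNA per cell cannot be told apart. Lower in Dnmt3a were Procr, named as a member of the stem cell self-renewal list, with 2.80, 4.92 and 8.56 CPM in MxCre and 1.11, 1.46, 0.762 and 0.637 CPM in Dnmt3a, and Gp9, a subunit of the platelet receptor for von Willebrand factor, with 11.02, 11.1 and 18.9 CPM against 4.40, 7.67, 2.71 and 2.45 CPM (adjusted p = 0.0309 and 0.0335). Also lower were Mycn, a MYC family transcription factor, and Gng11, a G protein subunit abundant in megakaryocytes (log2 differences -2.52 and -1.72). Higher were the B-lineage genes Vpreb3, Vpreb1 and Igll1 and the lymphoid transcription factor gene Lef1. Vpreb3 stood at 0.444, 0.789 and 1.25 CPM in MxCre and at 33.7, 3.999, 20.96 and 545 CPM in Dnmt3a, so that the highest value belongs to the mouse with most B-lymphoid progenitor-like cells. Satb1, a chromatin organiser of lymphoid progenitors, rose 2.37-fold, from 9.53, 13.4 and 12.3 CPM to 35.6, 28.5, 18.6 and 28.8 CPM (adjusted p = 0.0259). The count of called genes was 1 without MxCre mouse 2 and without Dnmt3a mouse 1, 3 without MxCre mouse 3, 60 without MxCre mouse 1, 41 without Dnmt3a mouse 3 and 1259 without Dnmt3a mouse 2, and 7 with the Rps29 covariate, although 385 of the 386 genes then had the same sign. Each gene named here for all cells lost its call without at least 1 mouse. With only the 2 groups in the fit 7 genes were called over all cells, 5 of them among the 386, and 19 of 21 genes named for all cells lost their call, among them Procr, Gp9, Mycn, Gng11, Vpreb3, Vpreb1, Igll1, Lef1 and Satb1 (adjusted p 0.0682 to 0.165). With the replicate block 10 of the 21 did.

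In stem cell-like cells 1387 of 12435 genes were called, 11.2% of those tested, with 627 higher (5.04%) and 760 lower (6.11%) in Dnmt3a. The shares of 5.04% and 6.11% stand beside each count of list members in this class below. The CPM values of the groups did not overlap for 22.5% of the genes tested. Stem cell, platelet, antigen presentation and interferon genes were among those lower, and lymphoid, myeloid and cell cycle genes among those higher. Counts fell to 401 without MxCre mouse 2, 283 without MxCre mouse 3 and 914 without Dnmt3a mouse 3. With classes from resolution 2 the count was 547, of which 490 were shared, and 1281 of the 1387 genes kept their sign, while granulocyte progenitor-like cells then had 591. With the Rps29 covariate 165 genes were called, 118 of them among the 1387, and 1359 of the 1387 kept their sign. Without the cells of the Procr-led cluster 814 genes were called, of which 785 were shared. Of the named genes called in stem cell-like cells, 24 of 67 lost their call with resolution 2. Those given values below are Vwf (adjusted p = 0.0615), Car2 (0.172), Epor (0.19), Ighm (0.158), Mpo (0.0523), Zbp1 (0.0923), Iigp1 (0.159) and Hoxb5 (0.241). With only the 2 groups in the fit 9 of 73 did, Hoxb5 (0.063) and Cdkn1b (0.0573) among them.

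Of 30 stem cell self-renewal genes tested, 10 were lower, none was higher, and the median log2 difference was -0.50, beside 0.00 over all genes. Procr fell from 15.6, 34.7 and 33.6 CPM to 6.18, 8.01, 3.41 and 4.40 CPM (log2 difference -2.33 ± 0.33 SE, adjusted p = 0.00105). The 4 Dnmt3a mice all lay below the lowest MxCre mouse. Mycn fell from 20.9, 48.7 and 59.6 CPM to 5.64, 6.95, 13.4 and 14.2 CPM (-2.11 ± 0.37, adjusted p = 0.00390). Fgd5, a guanine nucleotide exchange factor used as a reporter locus for stem cells, stood at 2.001, 6.38 and 7.43 CPM against 0.839, 1.29, 0.740 and 1.67 CPM (adjusted p = 0.0108). Other lower members included the transcription factor genes Hoxb5, Mecom, Gata2, Tal1, Fli1 and Meis1. Procr and Fgd5 also stayed called with the Rps29 covariate (adjusted p = 0.00360 and 0.0138), where 3 of the stem cell self-renewal genes were lower, and Mycn did not (0.104). Without the Procr-led cluster 4 were lower, Procr and Mycn among them (adjusted p = 0.00435 and 0.00718). The number of lower members was 3 without MxCre mouse 2, 2 without MxCre mouse 3, 6 without Dnmt3a mouse 3 or 4 and 16 without MxCre mouse 1, and Fgd5 was not called without MxCre mouse 3 (adjusted p = 0.0901). Procr, Fgd5, Mycn, Hoxb5, Mecom and Meis1 were also among the markers that named the class.

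Of 23 megakaryocyte and platelet genes in stem cell-like cells 11 were lower and none higher, with a median of -0.94. Megakaryocyte progenitor-like cells averaged 19.1% of cells in the MxCre mice and 6.36% in the Dnmt3a mice. The part of their RNA in these values was not tested. Pf4, platelet factor 4, stood at 47.0, 58.0 and 40.6 CPM in MxCre and at 9.38, 11.9, 14.2 and 7.88 CPM in Dnmt3a (log2 difference -2.13 ± 0.26, adjusted p = 3.42e-04). Its lowest MxCre value is above its highest Dnmt3a value, and its call held without each mouse in turn and with the covariate (adjusted p = 0.0172). Vwf, which encodes von Willebrand factor and marks platelet-biased stem cells, stood at 1.35, 3.91 and 13.8 CPM against 1.45, 1.21, 1.02 and 1.52 CPM. These ranges overlap, and the call of Vwf ended without MxCre mouse 3 (adjusted p = 0.0150 in the fit of all libraries and 0.2565 without that mouse). With the Rps29 covariate 4 of the megakaryocyte and platelet genes were lower, and 7 without the Procr-led cluster. Counts of lower members were 6 without MxCre mouse 2 and 5 without MxCre mouse 3. Of the erythroid, haem and iron genes 5 of 26 were lower and 1 higher. Those lower included Car2, a carbonic anhydrase, at 410, 423 and 444 CPM against 170, 254, 257 and 221 CPM, and Epor, the erythropoietin receptor, at 2.75, 2.48 and 4.11 CPM against 0.915, 0.970, 1.82 and 0.606 CPM. Both of these calls ended without MxCre mouse 3 (adjusted p = 0.0544 and 0.1235) and with the covariate (0.2705 and 0.127). The list's lower members numbered 3 without MxCre mouse 2 and 1 without MxCre mouse 3, and no gene of the list was called with the covariate.

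**Figure D2:**
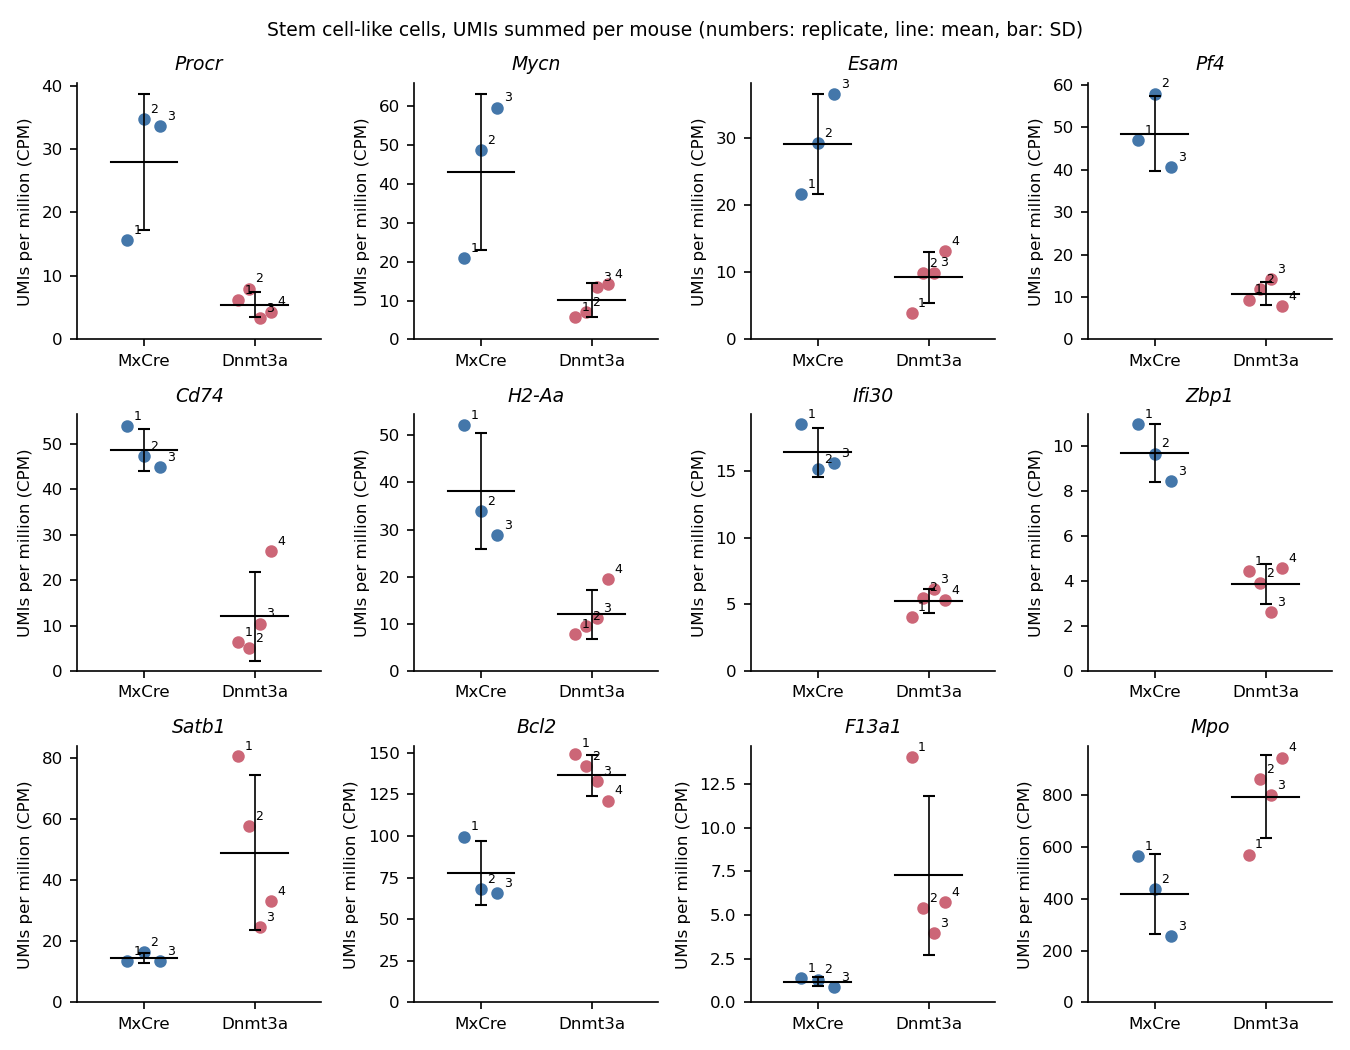
Levels of 12 genes in stem cell-like cells (CPM, linear axis from 0, a separate scale for each gene), with 1 point per mouse for 3 MxCre and 4 Dnmt3a mice. For Procr, Mycn, Esam, Pf4, Cd74, H2-Aa, Ifi30 and Zbp1 each Dnmt3a mouse lies below each MxCre mouse, and for Satb1, Bcl2, F13a1 and Mpo each Dnmt3a mouse lies above.

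Of 17 lymphoid priming genes, which prime cells for lymphoid fates, 6 were higher and 1 lower, with a median of 1.02. Satb1 stood at 13.6, 16.4 and 13.6 CPM in MxCre and at 80.7, 57.8, 24.6 and 33.2 CPM in Dnmt3a (log2 difference 1.77 ± 0.33, a 3.42-fold rise, adjusted p = 0.00488). All 4 Dnmt3a mice were above the MxCre mice, mouse 1 the most. Other higher members included Arpp21, Rag2, Flt3 and Notch1. The lower one was Ltb, lymphotoxin beta, a ligand of the TNF family (30.5, 44.8 and 47.0 CPM against 14.8, 17.4, 14.4 and 8.49 CPM, adjusted p = 0.00159). Ltb was also a leading gene of the Procr-led cluster, and its value without that cluster is not given here. Of 15 B-lineage genes 4 were higher, among them Ighm, the immunoglobulin mu chain, at 4.70, 11.3 and 6.39 CPM against 44.2, 22.1, 18.8 and 21.4 CPM (adjusted p = 0.00573). The number of higher B-lineage genes was 2 without MxCre mouse 1 and 1 without MxCre mouse 2, MxCre mouse 3 or Dnmt3a mouse 4, and 2 with the covariate. Summed markers of B-lymphoid progenitors in these cells ranged from 30.1 to 33.9 CPM in MxCre and from 33.5 to 65.7 CPM in Dnmt3a, and their part in the result was not tested. Without MxCre mouse 2 or MxCre mouse 3, 2 of the lymphoid priming genes were higher, Satb1 among them. With the covariate 2 were higher, and Satb1 was not called (adjusted p = 0.0553).

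Myeloid genes moved in both directions. Primary granule and neutrophil genes had 4 of 21 higher (Mpo, Ctsg, Prtn3 and Serpinb1a), 1 lower and a median of 0.71. Mpo, myeloperoxidase, stood at 565, 437 and 256 CPM in MxCre and at 570, 862, 799 and 944 CPM in Dnmt3a (1.89-fold, adjusted p = 0.0270), so that Dnmt3a mouse 1 barely exceeded MxCre mouse 1. Its call ended without MxCre mouse 2 or 3 or Dnmt3a mouse 4 (adjusted p = 0.08467, 0.1466 and 0.06061). No granule gene was higher with the Rps29 covariate, without the Procr-led cluster, without MxCre mouse 2 or without MxCre mouse 3, and 1 was without Dnmt3a mouse 4. The list's median was -0.35 with the covariate, of opposite sign. Among 26 monocyte and dendritic cell genes 8 were higher and 5 lower. F13a1, coagulation factor XIII of monocytes, rose from 1.40, 1.30 and 0.883 CPM to 14.03, 5.42, 3.98 and 5.76 CPM (6.16-fold, adjusted p = 0.00826, 0.0623 without MxCre mouse 3 and 0.09455 with the covariate). Ccr2, the chemokine receptor of inflammatory monocytes, and Csf1r and Irf8, regulators of monocyte development, were also higher. The lower members were S100a6 and 4 genes of antigen presentation. The higher members of this list numbered 4 without MxCre mouse 2 or Dnmt3a mouse 1 and 1 without MxCre mouse 3. With the covariate 2 were higher and 4 lower. Summed markers of granulocyte progenitors in stem cell-like cells ranged from 1191 to 2078 CPM in MxCre and from 2603 to 3150 CPM in Dnmt3a, and those of monocyte progenitors from 61.8 to 79.0 CPM and from 95.0 to 202 CPM. The granulocyte set holds Mpo, Ctsg and Prtn3, and the monocyte set F13a1, Ccr2, Csf1r and Irf8. The sums are therefore not findings separate from these genes.

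Antigen presentation by MHC class II is a function of dendritic cells, B cells and macrophages, and early haematopoietic cells also transcribe it at low levels. In stem cell-like cells 5 of 12 genes of this list were lower and 1 was higher, against 4 and 0 with the covariate and 2 and 1 with doublets kept. Cd74, the invariant chain that guards the peptide groove, stood at 53.9, 47.3 and 44.9 CPM in MxCre and at 6.41, 5.09, 10.4 and 26.4 CPM in Dnmt3a (log2 difference -2.10 ± 0.39, adjusted p = 0.00488). H2-Aa, the class II alpha chain, stood at 52.1, 33.9 and 28.7 CPM against 7.85, 9.54, 11.2 and 19.4 CPM (-1.72 ± 0.28, adjusted p = 0.00235). H2-Eb1, a class II beta chain, and Ciita, the class II transactivator, were lower too. Ifi30, a lysosomal thiol reductase that unfolds antigens, had 18.5, 15.1 and 15.6 CPM against 4.04, 5.50, 6.15 and 5.31 CPM (-1.64 ± 0.21, adjusted p = 4.71e-04). Cd74, H2-Aa, H2-Eb1 and Ifi30 stayed called without each mouse in turn, with the covariate (adjusted p = 0.0325, 0.0261, 0.04597 and 0.00103) and without the Procr-led cluster (0.0107, 0.00856, 0.01996 and 3.22e-04). With doublets kept Ifi30 stayed called (adjusted p = 0.005147), but Cd74, H2-Aa and H2-Eb1 did not (adjusted p = 0.3395, 0.0799 and 0.1312), and their log2 differences were then -0.98, -1.15 and -1.14. Cd74 and H2-Aa are abundant in mature B cells. Summed markers of mature B cells, a set that holds Cd74 and H2-Aa, ranged from 78.4 to 104 CPM in MxCre and from 16.5 to 52.7 CPM in Dnmt3a in stem cell-like cells. These sums include the genes above and are not a separate measure of B cells, whose part in the result was not tested.

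Some MHC class I and interferon response genes were lower as well. Of 19 MHC class I presentation genes 7 were lower and 1 was higher. B2m, beta-2 microglobulin, the shared light chain of class I, stood at 1711, 1579 and 1429 CPM in MxCre and at 910, 1220, 846 and 898 CPM in Dnmt3a (-0.70 ± 0.13, adjusted p = 0.00488). H2-Q4, H2-Q6 and H2-Q7 are near-identical copies, so their reads may be split among them and their values are uncertain. Of 46 interferon response genes 13 were lower and none was higher, with a median of -0.45. Zbp1, a sensor of Z-form nucleic acids, stood at 10.96, 9.64 and 8.42 CPM against 4.42, 3.88, 2.62 and 4.55 CPM (-1.35 ± 0.21, adjusted p = 0.00177), and Iigp1, an immunity-related GTPase, at 39.2, 26.3 and 31.7 CPM against 16.9, 14.4, 7.80 and 9.85 CPM (-1.41 ± 0.27, adjusted p = 0.00594). With the covariate no MHC class I presentation genes and 3 interferon response genes were lower. Zbp1 stayed called (adjusted p = 0.0334), and Iigp1 did not (0.517). Without the Procr-led cluster 5 of each list were lower, and Iigp1, a leading gene of that cluster, was not (0.0867). Without MxCre mouse 2 the lower members numbered 1 for MHC class I and 5 for interferon response genes, and without MxCre mouse 3 they numbered 4 and 5. Without MxCre mouse 1, 8 interferon response genes were lower.

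**Figure D3:**
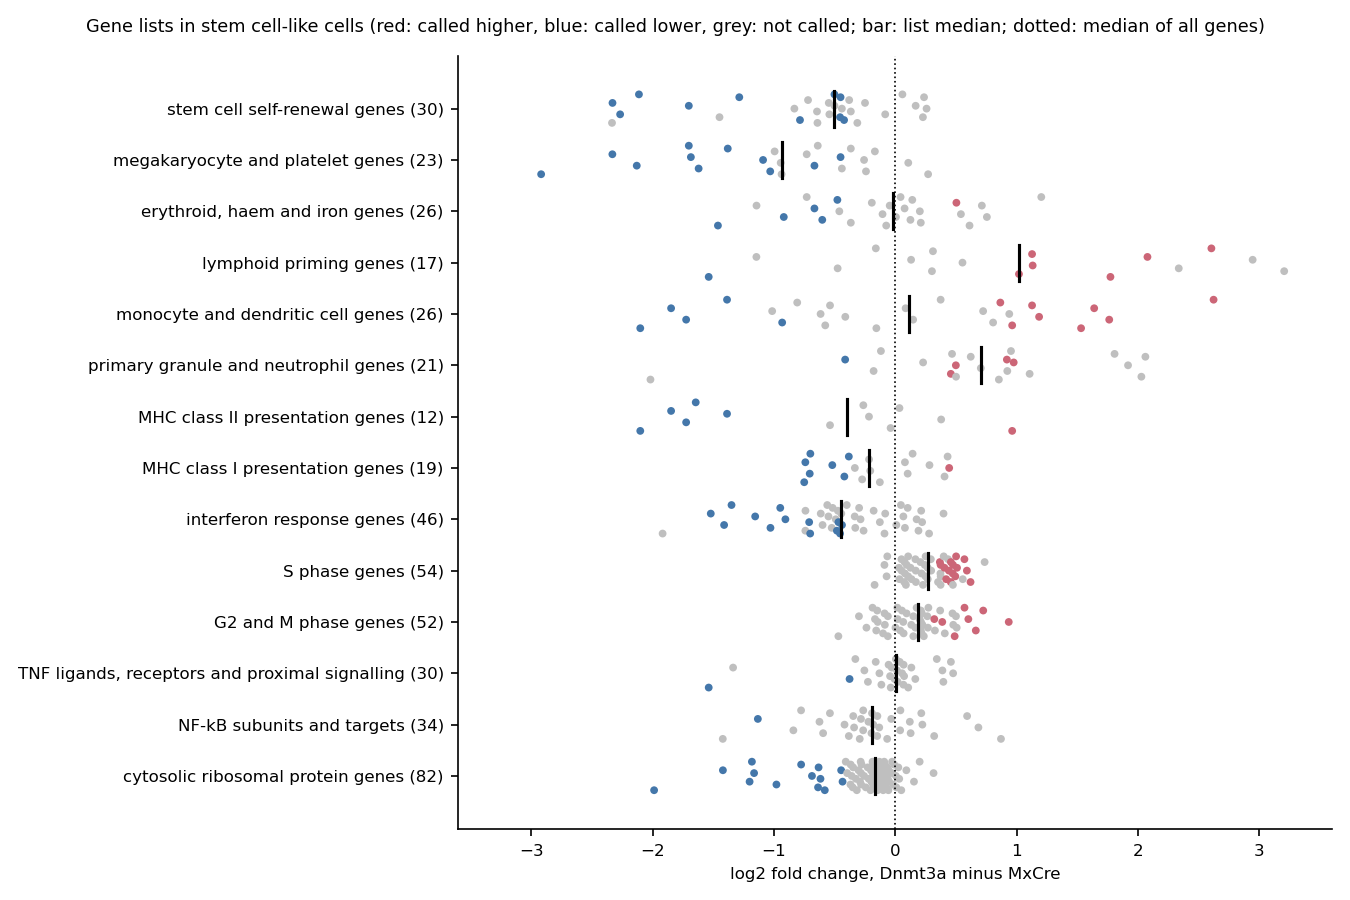
Log2 differences (Dnmt3a minus MxCre) of single genes in stem cell-like cells for 14 gene lists, 1 dot per gene tested, red for called higher, blue for called lower and grey for not called, with a bar at each list's median and a dotted line at the median of all genes (0.00). The medians of the lists run from -0.94 for megakaryocyte and platelet genes to 1.02 for lymphoid priming genes among those described.

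Over all genes tested in stem cell-like cells, 5.04% were higher and 6.11% lower. Of 23 niche homing and adhesion genes 4 were higher and 3 lower, of 31 cytokine receptors 5 were higher and 3 lower, and of 13 BCL2 family genes 2 were higher and none lower. With the covariate these numbers were 1 and 2, 1 and 1, and 1 and 0. Without MxCre mouse 3 they were 1 and 1, 1 and 1, and 1 and 0, and without MxCre mouse 2 the first pairs were 1 and 1 and 3 and 2. The adhesion numbers were 6 and 5 without MxCre mouse 1, and the receptor numbers were 3 and 2 without Dnmt3a mouse 1. Esam, an endothelial adhesion molecule that marks stem cells, stood at 21.7, 29.3 and 36.6 CPM in MxCre and at 3.96, 9.86, 9.96 and 13.2 CPM in Dnmt3a (log2 difference -1.69 ± 0.30, adjusted p = 0.00464, 0.002555 with the covariate). Il18r1, a chain of the interleukin 18 receptor, stood at 5.80, 5.08 and 6.50 CPM against 1.75, 1.46, 1.48 and 1.82 CPM (-1.85 ± 0.20, adjusted p = 3.06e-04, 0.00482 with the covariate). For both genes the groups are well separated, and both calls held without each mouse in turn. Bcl2, which blocks apoptosis, rose 1.75-fold, from 99.7, 68.0 and 65.7 CPM to 150, 142, 133 and 121 CPM (adjusted p = 0.00338, 0.02075 with the covariate). Pmaip1, which encodes the pro-apoptotic protein NOXA, rose at the same time, from 0.550, 0.261 and 0.208 CPM to 4.19, 2.35, 1.48 and 2.27 CPM (adjusted p = 0.00594, 0.0502 without MxCre mouse 3 and 0.188 with the covariate). Of 15 genes in the HoxA and HoxB list 3 were lower, Hoxb5, Hoxb3 and the Hox cofactor gene Meis1. Hoxb5 stood at 2.80, 2.74 and 5.20 CPM against 0.991, 0.808, 1.82 and 2.58 CPM (adjusted p = 0.0350, up to 0.246 without MxCre mouse 2 or 3 or Dnmt3a mouse 1 or 2, and 0.156 without the Procr-led cluster). None of the 15 was lower without MxCre mouse 2 or without MxCre mouse 3, 1 was without Dnmt3a mouse 2, and 2 were with the covariate.

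A minority of cell cycle genes were called higher in stem cell-like cells. The larger and smaller clusters of this class held 689 and 367, 373 and 124, and 1019 and 388 cells in the MxCre mice. In the Dnmt3a mice they held 278 and 106, 382 and 157, 554 and 402, and 112 and 99 cells. The part of this makeup in the calls was not tested. Of 54 S phase genes 15 were higher and none lower, with a median of 0.27, and of 52 G2 and M phase genes 8 were higher and none lower, with a median of 0.19. Mki67, the proliferation antigen Ki-67, stood at 210, 176 and 183 CPM in MxCre and at 449, 260, 364 and 382 CPM in Dnmt3a (1.91-fold, adjusted p = 0.00292). All Dnmt3a mice were above all MxCre mice. Pola1, a DNA polymerase alpha subunit, rose from 76.2, 70.1 and 71.0 CPM to 123, 95.2, 108 and 111 CPM, and Cenpe, a kinetochore motor, from 57.3, 43.0 and 48.0 CPM to 90.6, 59.0, 80.2 and 99.1 CPM. Neither Pola1 nor Cenpe was called without MxCre mouse 2 or without MxCre mouse 3 (adjusted p up to 0.0603 and 0.0619). With the Rps29 covariate no S phase genes and no G2 and M phase genes were called higher (Mki67 adjusted p = 0.0837). Without MxCre mouse 2 the higher members were 2 S phase genes and 1 of G2 and M phase, and without MxCre mouse 3 they were 1 and 1. Without Dnmt3a mouse 3 or 4 the S phase number was 9 in each case, and the G2 and M phase number was 4 without Dnmt3a mouse 1, 3 or 4 and 16 without Dnmt3a mouse 2. Cdkn1b, which encodes the cell cycle inhibitor p27, was also higher (42.0, 39.6 and 36.9 CPM against 68.8, 52.2, 56.4 and 45.5 CPM, adjusted p = 0.0268, and up to 0.141 without MxCre mouse 2 or 3 or Dnmt3a mouse 1 or 3).

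Receptors and mediators of TNF signalling belong to the pathway the study addresses. TNF acts through TNFR1, encoded by Tnfrsf1a, and TNFR2, encoded by Tnfrsf1b, which recruit adaptor proteins and activate the transcription factor NF-kB. In stem cell-like cells Tnfrsf1a stood at 40.3, 44.2 and 43.8 CPM in MxCre and at 29.1, 42.4, 38.1 and 43.7 CPM in Dnmt3a (log2 difference -0.16 ± 0.13, adjusted p = 0.477). Tnfrsf1b stood at 10.6, 17.6 and 12.8 CPM against 11.97, 11.3, 8.59 and 11.1 CPM (-0.33 ± 0.19, adjusted p = 0.296). Over all cells the ligand gene Tnf stood at 2.65, 3.32 and 2.30 CPM against 1.64, 1.96, 2.83 and 3.42 CPM (adjusted p = 0.858). For all 3 genes the groups overlap. Of 30 TNF ligands, receptors and proximal signalling genes in stem cell-like cells, 2 were lower, Ltb and Birc2, an inhibitor of apoptosis that ubiquitinates RIPK1, and 1 was lower without MxCre mouse 2 or 3 and none with the covariate. Both this count and that of the NF-kB list stand beside 6.11% of all genes tested that were lower. Ltb was also a leading gene of the Procr-led cluster. Of 34 NF-kB subunits and targets 1 was lower, Tnfaip2, a TNF-induced gene, at 34.2, 34.8 and 33.99 CPM against 19.8, 19.4, 12.5 and 10.3 CPM (-1.13 ± 0.25, adjusted p = 0.0109). Tnfaip2 was also lower in early multipotent, granulocyte, monocyte, and basophil and mast cell progenitor-like cells (log2 differences -0.90, -0.87, -0.90 and -0.99), and in none of these 5 classes with the covariate (adjusted p 0.692 to 0.984).

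In early multipotent progenitor-like cells 261 of 11319 genes were called (2.31%), 106 higher (0.936%) and 155 lower (1.37%). Higher and lower numbered 92 and 70 with the replicate block and 254 and 256 without the filter on low counts. With only the 2 groups in the fit they numbered 38 and 104. Of 17 megakaryocyte and platelet genes 2 were lower and none higher, and 1 was lower with the covariate. None of 26 stem cell self-renewal genes was called. Itga2b, integrin alpha IIb or CD41, stood at 18.9, 28.1 and 29.0 CPM in MxCre and at 9.35, 9.98, 15.8 and 12.03 CPM in Dnmt3a (-1.02 ± 0.23, adjusted p = 0.0336, 0.0183 with the covariate). Pf4 and Esam were lower with log2 differences of -1.30 and -1.87, though with doublets kept the Pf4 difference was 0.13, of the other sign, and Cd9, a tetraspanin of platelets, with -0.71. Ifngr1, a chain of the interferon gamma receptor, rose from 96.5, 111 and 89.3 CPM to 140, 139, 148 and 139 CPM (1.43-fold, adjusted p = 0.0377, 0.4685 with the covariate). None of these 5 genes was called without MxCre mouse 1, 2 or 3 (adjusted p 0.0601 to 0.1899). With resolution 2 the calls of Itga2b and Ifngr1 ended (adjusted p = 0.0706 and 0.0636). The count was 10, 15 and 30 without MxCre mouse 1, 2 or 3, 72 and 85 without Dnmt3a mouse 4 or 3, and 437 without Dnmt3a mouse 2. It was 10 with the covariate.

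In granulocyte progenitor-like cells 548 of 12415 genes were called (4.41%), 250 higher (2.01%) and 298 lower (2.4%). Fcnb, ficolin B, a lectin of maturing myeloid cells, stood at 93.0, 112 and 53.0 CPM in MxCre and at 22.2, 25.7, 36.0 and 49.5 CPM in Dnmt3a (-1.34 ± 0.29, adjusted p = 0.0214). Ly6c2, the Ly6C surface antigen, fell from 1319, 1514 and 1023 CPM to 863, 983, 710 and 757 CPM. Summed markers of maturing neutrophils in this class ranged from 1781 to 3605 CPM in MxCre and from 485 to 3228 CPM in Dnmt3a, and their part in these changes was not tested. Erg, an ETS factor of stem and progenitor cells, rose from 11.5, 11.01 and 11.04 CPM to 22.3, 16.6, 19.0 and 16.4 CPM (1.64-fold, adjusted p = 0.0117), and Bcl2 rose 1.40-fold. Of 54 S phase genes 6 were higher, none with the covariate, none without any 1 of the MxCre mice and 3 to 5 without any 1 of the Dnmt3a mice. The count of called genes was 11, 28 and 104 without MxCre mouse 1, 2 or 3, 290 and 292 without Dnmt3a mouse 3 or 4, and 363 without Dnmt3a mouse 1. It was 16 with the covariate, where Erg, Fcnb, Ly6c2 and Bcl2 were not called (adjusted p 0.238 to 0.671). None of these 4 genes was called without MxCre mouse 1 or 2 (adjusted p 0.05022 to 0.1569). With only the 2 groups in the fit Bcl2 and Ly6c2 were not called (adjusted p = 0.0825 and 0.0619).

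In monocyte progenitor-like cells 364 of 12418 genes were called (2.93%), 148 higher (1.19%) and 216 lower (1.74%). Ly6c2, which marks classical monocytes and their precursors, fell from 1423, 1893 and 984 CPM to 891, 835, 695 and 911 CPM (-0.78 ± 0.16, adjusted p = 0.0221). Bst2, tetherin, an interferon-induced antiviral protein, fell from 191, 168 and 170 CPM to 127, 139, 138 and 135 CPM (-0.39 ± 0.09, adjusted p = 0.0278). Otulin, which removes linear ubiquitin chains from TNF receptor complexes, was lower here (81.5, 68.6 and 75.6 CPM against 54.2, 58.1, 59.6 and 56.4 CPM, adjusted p = 0.0498), and in early multipotent and megakaryocyte progenitor-like cells with like differences (-0.42 and -0.40). The monocyte and megakaryocyte calls of Otulin ended with doublets kept (adjusted p = 0.05583 and 0.05605). The count was 2, 1 and 91 without MxCre mouse 1, 2 or 3, and 194, 200 and 218 without Dnmt3a mouse 4, 1 or 3. It was 13 with the covariate, and Ly6c2, Bst2 and Otulin were then not called (adjusted p 0.2404 to 0.603). None of the 3 was called without MxCre mouse 1 or 2 (adjusted p 0.09614 to 0.2424). Nor was any of them with only the 2 groups in the fit (adjusted p 0.0585 to 0.0859).

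In megakaryocyte progenitor-like cells, of which Dnmt3a mice 3 and 4 held 118 and 35, 609 of 11286 genes were called (5.4%), 347 higher (3.07%) and 262 lower (2.32%). Ifi30 fell from 25.1, 20.6 and 25.7 CPM to 5.91, 5.72, 6.26 and 7.89 CPM (-1.97 ± 0.22, adjusted p = 7.56e-04), and it stayed called without each mouse in turn and with the covariate (adjusted p = 0.00186). H2-Aa had 20.4, 8.60 and 6.44 CPM in MxCre and 3.30, 3.46, 2.89 and 2.96 CPM in Dnmt3a (adjusted p = 0.0190, and 0.0666 and 0.0616 without MxCre mouse 1 or Dnmt3a mouse 1). None of 27 megakaryocyte and platelet genes was called in this class, and their median was -0.16. Of 52 G2 and M phase genes 12 were higher and none lower, among them Mki67 (382, 301 and 300 CPM against 1062, 515, 782 and 688 CPM, 2.33-fold, adjusted p = 0.00705). With the covariate none of the 52 was called (Mki67 adjusted p = 0.2149). The number was 8, 1 and 1 without MxCre mouse 1, 2 or 3 and 1, 23, 4 and 4 without Dnmt3a mouse 1, 2, 3 or 4, while Mki67 stayed called in each of these fits. Mpo, Ctsg and the basophil and mast cell gene Ms4a2 were higher, most of all in the small classes of mice 3 and 4, and the calls of Mpo and Ctsg ended with doublets kept (adjusted p = 0.07101 and 0.07098). With resolution 2, where Dnmt3a entered with 3 mice, 12 of 23 named genes of the class lost their call, Mpo, Ctsg, Ms4a2, H2-Aa and Otulin among them (adjusted p 0.0717 to 0.348), and with only the 2 groups in the fit 10 of 29 did, Mpo, Ctsg, Ms4a2 and Otulin among them (0.0523 to 0.113). Ms4a2 stood at 22.6, 11.4 and 5.79 CPM against 39.1, 29.5, 168 and 235 CPM. Summed markers of basophils and mast cells stood at 48.9 to 131 CPM in MxCre and at 101 to 606 CPM in Dnmt3a in this class, and those of granulocyte progenitors at 234 to 420 and 423 to 1576 CPM. The basophil and mast cell set holds Ms4a2 and the granulocyte set Mpo and Ctsg, so these sums are not separate from those genes. Summed markers of megakaryocyte progenitors were 2604 to 3113 CPM in MxCre and 2644, 3196, 517 and 3955 CPM in Dnmt3a, so that Dnmt3a mouse 3 stood apart, and the part of these values in the result was not tested. The count of called genes was 217, 47 and 40 without MxCre mouse 1, 2 or 3, 122, 1379, 358 and 333 without Dnmt3a mouse 1, 2, 3 or 4, and 13 with the covariate.

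In basophil and mast cell progenitor-like cells 91 of 9745 genes were called (0.934%), 23 higher (0.236%) and 68 lower (0.698%). Tdg, thymine DNA glycosylase, which completes active DNA demethylation, fell from 60.8, 59.7 and 57.6 CPM to 44.8, 42.1, 36.1 and 31.2 CPM (-0.67 ± 0.14, adjusted p = 0.0332). The class I genes H2-T23 and Tapbp were lower as well (-0.67 and -0.60). None of the 3 was called without MxCre mouse 1, 2 or 3 or without Dnmt3a mouse 3 (adjusted p 0.0698 to 0.268) or with the covariate (0.453 to 0.486), and Tdg was not without Dnmt3a mouse 4 (0.101). The count was 2, 16 and 27 without MxCre mouse 1, 2 or 3, 6 and 37 without Dnmt3a mouse 3 or 4, 60 without Dnmt3a mouse 1, and 6 with the covariate. In erythroid progenitor-like cells edgeR called 0 of 11000 genes (0%), with 1651 at an unadjusted p below 0.05, and DESeq2 called 80. Dnmt3a mouse 4 stood apart there, with summed erythroid markers, haemoglobin genes included, at 176400 CPM against 6585 to 11280 CPM in the other Dnmt3a mice. Mature B cells, maturing neutrophils and mature monocytes or macrophages could be tested in fewer libraries, and 9 of 3188 (0.282%), 2 of 6968 (0.0287%) and 0 of 4981 genes (0%) were called, all lower (in the last, edgeR had 192 at an unadjusted p below 0.05 and DESeq2 called 2).

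Some genes differed in the same direction in most classes. Called in 6 classes were 6 genes higher and 30 lower, and 5 and 1 further genes were lower in 7 and 8 classes. The classes share mice and libraries, so a repeated call is not an independent one. Mtus2, which encodes a microtubule-associated protein, lies at chr5:147957275-148316065 (GRCm38.p6, the RefSeq annotation). In stem cell-like cells it stood at 22.9, 25.1 and 19.4 CPM in MxCre and at 0, 0.404, 0 and 0.152 CPM in Dnmt3a (adjusted p = 3.22e-04, 0.00103 with the covariate). In megakaryocyte progenitor-like cells 728 UMIs of Mtus2 were counted over the MxCre mice and 0 over the Dnmt3a mice. Against a floor of 3 UMIs over the Dnmt3a group its level was at least 86.6-fold lower. In the other 7 libraries Mtus2 stood at 0 to 1.51 CPM in stem cell-like cells, so that the 3 MxCre mice were the only ones of 14 above that level.

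Some genes that are normally active in germ cells behaved like Mtus2 in part. Hormad2, which encodes a protein of the meiotic chromosome axis and lies at chr11:4345801-4441198, stood at 15.1, 12.8 and 9.82 CPM in stem cell-like cells of MxCre and at 0, 0, 0.0569 and 0 CPM in Dnmt3a (adjusted p = 0.00594, 0.382 with the covariate). In libraries labelled Dnmt3a;Tnfr2KO it was present in mice 1 and 2 (16.6 and 15.8 CPM) and at most 0.153 CPM in mice 3 and 4. Psma8, a proteasome subunit of the testis, stood at 21.5, 14.6 and 22.4 CPM against 0, 0, 0.0569 and 0 CPM (adjusted p = 0.0148, 0.0517 and 0.0551 without MxCre mouse 3 or Dnmt3a mouse 3, 2.66e-04 with the covariate). In mature monocytes and macrophages 3 UMIs of Psma8 were counted in MxCre and 9 in Dnmt3a. At resolution 2 Psma8 was a leading gene of a cluster of 49 cells, 91.8% of them from Dnmt3a;Tnfr2KO mouse 4. Rec8, a meiotic cohesin, was lower but still present, at 13.1, 18.4 and 16.7 CPM against 2.90, 4.69, 4.21 and 3.49 CPM (-2.05 ± 0.35, adjusted p = 0.00330, 0.009265 with the covariate). Of 8 germline-type genes tested in these cells 4 were lower and none was higher, and 2 were lower with the covariate. This list was chosen with earlier results of these data known, so its count is not a test of such genes as a group. Smim40, a small membrane protein gene at chr17:33893206-33906680, stood at 16.7, 9.77 and 12.4 CPM against 0.0762, 0, 1.37 and 1.36 CPM (adjusted p = 0.00978, 4.89e-04 with the covariate).

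The genes higher in 6 classes were 2 noncoding RNA genes, Gm43305 and Kcnq1ot1, and 4 protein-coding genes, Mki67, Pink1, Trip11 and Ankrd11. Gm43305, at chr14:54292441-54297488, stood at 2.65, 2.21 and 9.25 CPM in stem cell-like cells of MxCre and at 70.8, 55.1, 41.5 and 53.7 CPM in Dnmt3a (log2 difference 3.46 ± 0.39, a 10.99-fold rise, adjusted p = 3.06e-04, 0.00482 with the covariate). In the other 7 libraries it stood at 13.7 to 71.2 CPM, above every MxCre mouse. Kcnq1ot1, at chr7:143213111-143296547, is an imprinted antisense RNA whose expression depends on DNA methylation of its promoter. It stood at 247, 229 and 240 CPM against 622, 392, 408 and 397 CPM (1.91-fold, adjusted p = 0.00415, 0.0461 with the covariate), and in the other 7 libraries at 199 to 375 CPM, a range that overlaps MxCre. The Kcnq1ot1 difference was 2.09-fold in megakaryocyte, 2.27-fold in granulocyte, 2.2-fold in monocyte, 2.12-fold in early multipotent and 2.49-fold in basophil and mast cell progenitor-like cells. Its call held without each mouse in turn in all of these but monocyte (adjusted p = 0.0568 and 0.08397 without MxCre mouse 1 or 2) and basophil and mast cell progenitor-like cells (0.106 and 0.06435). Since Kcnq1ot1 overlaps Kcnq1 on the opposite strand and the strand setting of the counting is not given in the sources used here, reads of the pair may not be told apart.

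**Figure D4:**
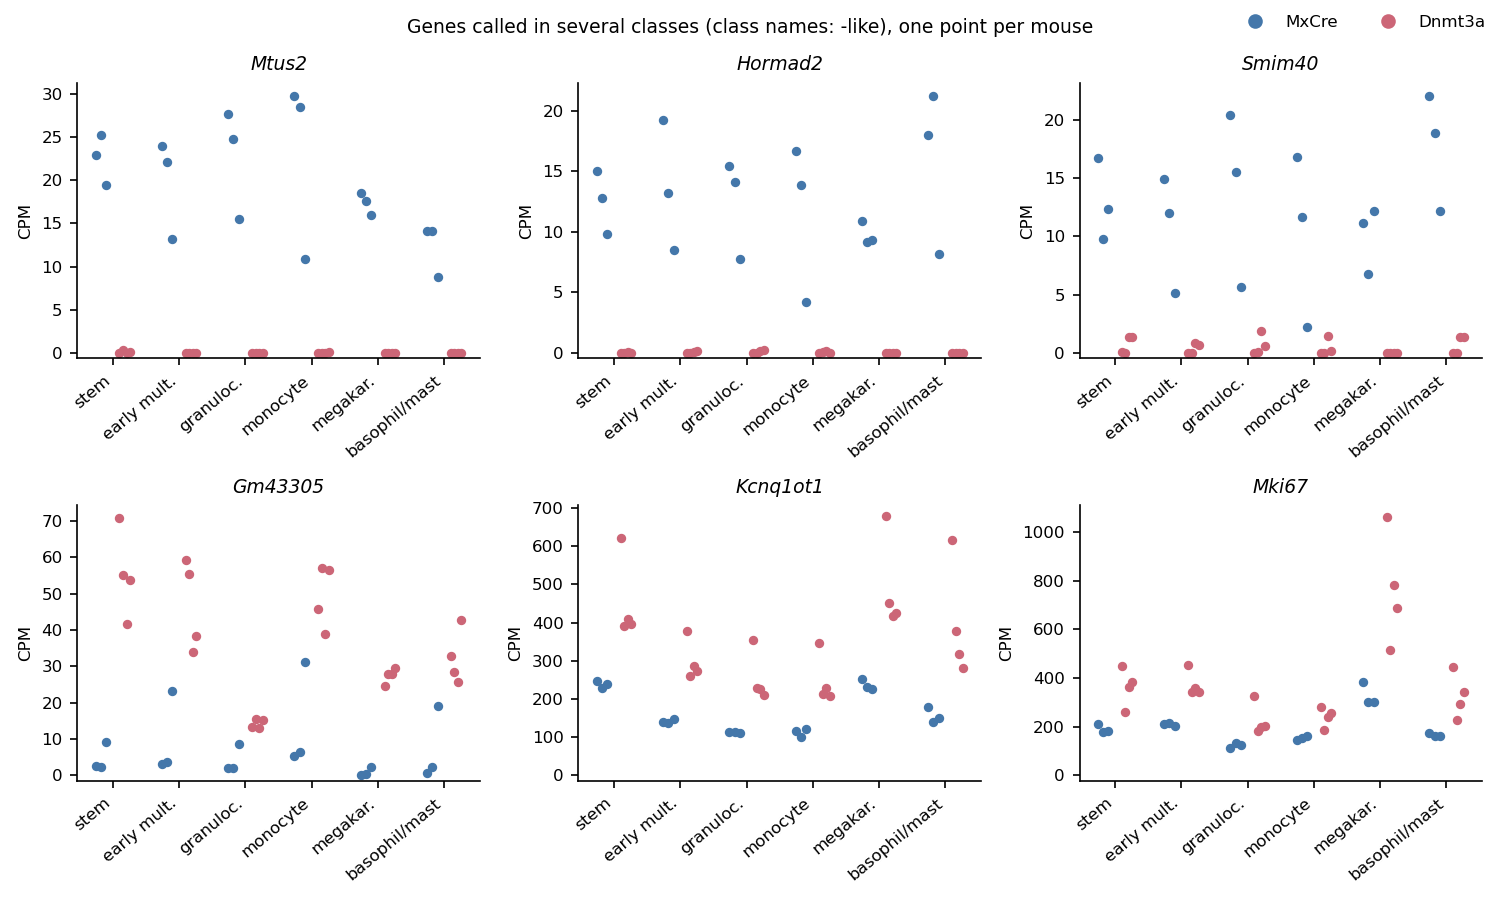
Levels of Mtus2, Hormad2, Smim40, Gm43305, Kcnq1ot1 and Mki67 (CPM) in 6 cell classes, with 1 point per mouse for 3 MxCre and 4 Dnmt3a mice. Mtus2, Hormad2 and Smim40 lie at or near 0 in the Dnmt3a mice, and in stem cell-like cells Kcnq1ot1 runs from 392 to 622 CPM in Dnmt3a and from 229 to 247 CPM in MxCre.

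Genes of the ribosome and of oxidative phosphorylation were also among those called. Of 82 cytosolic ribosomal protein genes 14 were lower in stem cell-like cells and none was higher, with a median of -0.17. Among those lower were Rps29, Rps28, Rps27, Rpl38, Rpl39 and Rpl41. Rps28 stood at 6580, 5382 and 5075 CPM in MxCre and at 2435, 3104, 2166 and 2181 CPM in Dnmt3a (-1.20 ± 0.23, adjusted p = 0.00545). Of 78 nuclear oxidative phosphorylation genes 12 were lower and 2 higher. Atp5k, a small subunit of ATP synthase, stood at 497, 325 and 322 CPM against 160, 189, 168 and 180 CPM (-1.13 ± 0.24, adjusted p = 0.00963). None of the cytosolic ribosomal protein genes and none of the nuclear oxidative phosphorylation genes was called with the covariate. The covariate is the level of Rps29, itself a member of the ribosomal list, so the loss of its call follows from the fit. For genes that vary with Rps29 the fit cannot decide whether they differ between groups. The lower ribosomal protein genes numbered 6 or 7 without any 1 of the mice but Dnmt3a mouse 2, without which they numbered 27. The lower oxidative phosphorylation genes numbered 3 without MxCre mouse 1, 5 without MxCre mouse 2, MxCre mouse 3 or Dnmt3a mouse 1, and 6 without Dnmt3a mouse 4. In erythroid progenitor-like cells none of 82 and 76 genes of these lists was called, with medians of -0.37 and -0.16. Of all genes tested, 6.11% were lower in stem cell-like cells. In granulocyte, monocyte, megakaryocyte and early multipotent progenitor-like cells 2.4%, 1.74%, 2.32% and 1.37% were. Lower were 20 of 83 and 27 of 78 genes of these lists in granulocyte, 15 of 83 and 24 of 78 in monocyte, 12 of 82 and 20 of 76 in megakaryocyte and 16 of 82 and 14 of 78 in early multipotent progenitor-like cells. With the covariate none of them was called in these classes. Without MxCre mouse 1 the numbers fell to 0 and 1, 0 and 0, 3 and 6, and 0 and 1 in the same order, without MxCre mouse 2 to 0 and 3, 0 and 0, 2 and 4, and 0 and 2, and without MxCre mouse 3 to 6 and 9, 6 and 9, 3 and 3, and 4 and 4. Without Dnmt3a mouse 1, 3 or 4 the ribosomal protein genes numbered 7 to 12, 4 to 6, 3 to 6 and 4 to 11 and the oxidative phosphorylation genes 16 to 21, 12 to 17, 9 to 13 and 5 to 11, and without Dnmt3a mouse 2 they numbered 36 and 28, 33 and 28, 23 and 31, and 28 and 17.

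The median difference varied with the genomic span of the gene. When genes were ordered by the genomic span of their RefSeq annotation and split into 10 groups of equal size, the median log2 difference in stem cell-like cells ran from -0.13 in the group of shortest genes to 0.08 in the ninth group and 0.06 in that of the longest, and it rose over the first 7 groups and not steadily beyond. Among the shortest genes 19 genes were called higher and 127 lower, and in the longest 105 and 70. In granulocyte progenitor-like cells the medians were -0.17 and 0.17, with 5 higher and 90 lower against 65 higher and 9 lower. In monocyte progenitor-like cells they were -0.17 and 0.17, and in megakaryocyte progenitor-like cells -0.18 and 0.16. A span was found for 94.9% to 96.2% of the genes tested in these 4 classes. Span is not transcript length, which was not used here. Genes named above differ in span, and the part of this pattern in single results was not tested beyond the covariate values given beside them.

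**Figure D5:**
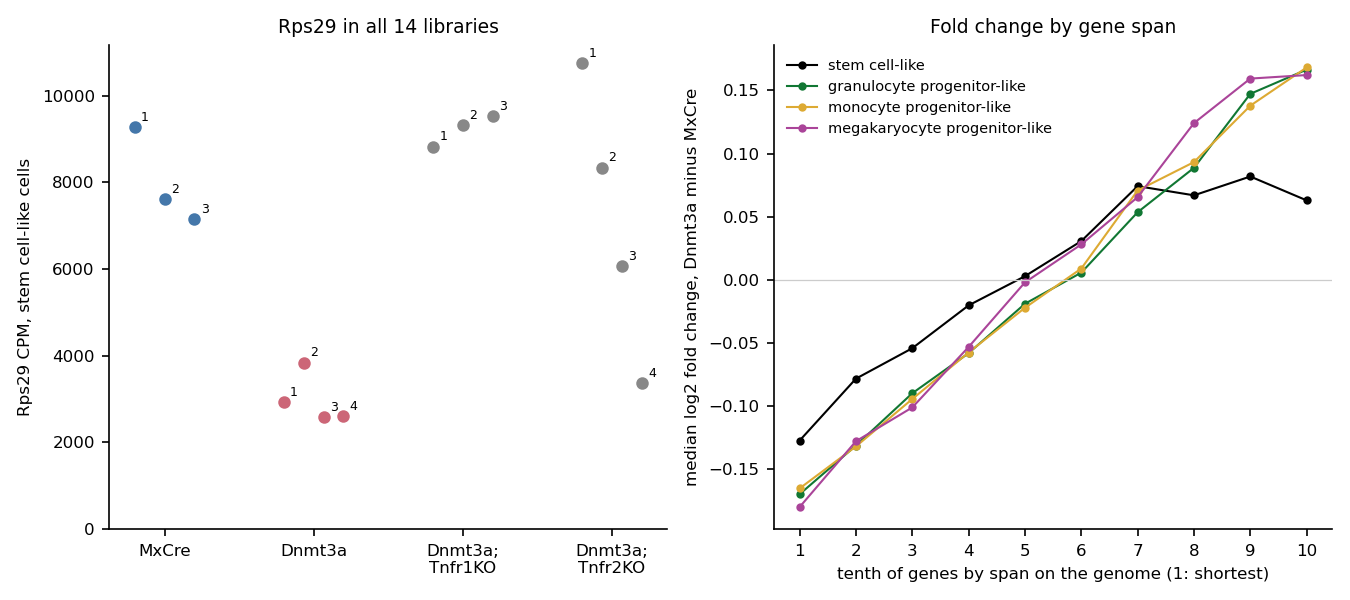
Left, Rps29 level in stem cell-like cells (CPM, axis from 0) in each of the 14 libraries by group. Right, median log2 difference (Dnmt3a minus MxCre) by group of genomic span, shortest to longest, for 4 cell classes, which runs from -0.13 to 0.06 in stem cell-like and from -0.17 to 0.17 in granulocyte progenitor-like cells. The 4 Dnmt3a mice (2583 to 3841 CPM) and Dnmt3a;Tnfr2KO mouse 4 (3374 CPM) lie below the other 9 libraries.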

How the data were processed

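Gene expression was measured by 10x Genomics 3′ v3.1 single-cell RNA sequencing, 1 library per mouse. The deposited matrices hold whole-number UMI counts per gene and barcode and are not normalized. Cell Ranger 6.0.0 and mm10 (GRCm38) were used, per the submitters' processing notes. Other steps are not given in the sources used here. Groups were taken from the labels. The compared groups, gene lists and tests were chosen with earlier results of these data known, and the rule that names clusters was set after seeing the data.

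Cells were kept with at least 1000 UMIs, 500 genes and under 10% mitochondrial UMIs. Simulated-doublet neighbours, called at 0.8% per 1000 cells (31 to 480 per library), were removed. Cells were clustered on 2000 variable genes and 30 principal components with 20 neighbours (leidenalg 0.10.2, resolution 1). A cluster of at least 50 cells took a name when its markers' mean z score exceeded 0.5, they led no less often than another class's among the 10 genes of largest fold, and at least 3 of them and 50% of the set were detected. The 16 marker sets held 177 genes.

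UMIs were summed per mouse over all cells and per class, dropping a library that had under 20 cells there. Tests used edgeR 4.0.16 (R 4.3.3): TMM scaling, filterByExpr, quasi-likelihood, all 14 libraries in 1 model, Benjamini-Hochberg adjustment over all genes of a fit, and a threshold of 0.05. CPM are scaled by TMM. Shares were compared by exact permutation (scipy 1.17.1). The edgeR scripts were tested on simulated data. Beyond Dnmt3a, Tnfrsf1a, Tnfrsf1b and Tnf, genes were named by size of change among called genes with at least 10 CPM in a group and no overlap (10 each way over all cells, 4 per class), by the number of classes (10 each way), or as the 4 largest called members of a list. Where a sentence lists other members of a list or group by name, these were added after seeing their values. Results for some genes within the rule are not reported here. Genes were placed by RefSeq, GRCm38.p6, which held 150 of 159 named genes. The floor of 3 UMIs covers counting error only. Alternatives were DESeq2 1.42.0, RLE scaling, no low-count filter, only the 7 libraries in the fit, a replicate block, doublets kept, 2000 UMIs per cell, resolution 2, a test of cell numbers and each mouse left out. Added after seeing the data were fits without Dnmt3a mice 1 and 4, with the Rps29 covariate, without the Procr-led cluster, and the test of cell numbers without Dnmt3a mouse 4.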

Additional observations from a re-analysis of the deposited data

Results flagged for a closer look

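In groups of 4 mice, 27 of 173 sets of values checked had 1 mouse far from the other 3, by the gap to its nearest neighbour relative to the whole range (Dixon criterion). Chance gives such a gap in about 1 in 20 groups of independent, normally distributed values. The sets here share mice, repeat genes over classes and hold genes chosen for their change, so that rate does not apply to them. By share of cells the mouse was Dnmt3a mouse 4, with 36.2% B-lymphoid progenitor-like cells, 1.66% T, NK and innate lymphoid-like cells, 15.53% maturing neutrophil-like cells and only 3.892% stem cell-like cells. Over all cells the same mouse was highest for Vpreb3 (545.1 CPM), Vpreb1 (421.5 CPM), Igll1 (263.7 CPM), Lef1 (47.84 CPM) and Akap12 (35.82 CPM). It was also highest for Mbd2 in stem cell-like cells (80.95 CPM) and for H2-Eb1 in megakaryocyte progenitor-like cells (6.904 CPM), and lowest for Dnmt3a in erythroid progenitor-like cells (1.685 CPM).

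Dnmt3a mouse 1 was highest for Kcnq1ot1 in stem cell-like cells (621.5 CPM) and in megakaryocyte (678.3 CPM), granulocyte (353.7 CPM) and monocyte progenitor-like cells (347.7 CPM). It was highest for the proliferation gene Mki67 in early multipotent (453.6 CPM) and granulocyte progenitor-like cells (325.8 CPM), for Cenpe in early multipotent (159.7 CPM), for Atad2 in granulocyte (160.6 CPM) and for the linker histone gene Hist1h1c in megakaryocyte progenitor-like cells (588.2 CPM). In stem cell-like cells it was highest for Ighm (44.23 CPM). Dnmt3a mouse 2 was highest for Ctsg (941.8 CPM) and B2m (1220 CPM) and lowest for Hoxb3 (3.153 CPM) in stem cell-like cells, and highest for Rps29 in basophil and mast cell progenitor-like cells (3605 CPM). Dnmt3a mouse 3 was highest for Ifngr1 in early multipotent progenitor-like cells (147.8 CPM).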

How the results depend on the processing

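Numbers of called genes moved with most settings, and the cause was not tested. The fits of all 14 libraries gave 386 in all cells, 91 in basophil and mast cell, 261 in early multipotent, 0 in erythroid, 548 in granulocyte, 9 in mature B, 0 in mature monocyte, 2 in maturing neutrophil, 609 in megakaryocyte, 364 in monocyte and 1387 in stem cell (progenitor-like cells where the name is a lineage). Under each setting below, the numbers given are those that differed by over 1.5 times. By DESeq2 there were 1510 in all cells, 218 in basophil and mast cell, 584 in early multipotent, 80 in erythroid, 1057 in granulocyte, 18 in mature B, 2 in mature monocyte, 24 in maturing neutrophil, 945 in megakaryocyte and 861 in monocyte. Without the filter on low counts there were 315 in basophil and mast cell, 510 in early multipotent, 21 in mature B, 34 in mature monocyte, 85 in maturing neutrophil and 943 in megakaryocyte. With only the 2 groups in the fit there were 7 in all cells, 142 in early multipotent, 255 in granulocyte, 3 in mature B, 1 in mature monocyte, 34 in maturing neutrophil, 187 in megakaryocyte and 182 in monocyte. With classes from Leiden resolution 2 there were 23 in basophil and mast cell, 5 in mature monocyte, 281 in megakaryocyte and 547 in stem cell. With doublets kept there were 0 in maturing neutrophil. Without Dnmt3a mice 1 and 4 there were 3 in all cells, 3 in basophil and mast cell, 17 in early multipotent, 1 in erythroid, 17 in granulocyte, 38 in mature B, 0 in maturing neutrophil, 11 in megakaryocyte, 3 in monocyte and 380 in stem cell. With the Rps29 covariate there were 7 in all cells, 6 in basophil and mast cell, 10 in early multipotent, 16 in granulocyte, 0 in mature B, 0 in maturing neutrophil, 13 in megakaryocyte, 13 in monocyte and 165 in stem cell. Without the Procr-led cluster there were 814 in stem cell. With each mouse left out in turn they ran from 1 to 1259 in all cells, 2 to 132 in basophil and mast cell, 10 to 437 in early multipotent, 0 to 2 in erythroid, 11 to 708 in granulocyte, 1 to 38 in mature B, 0 in mature monocyte, 0 to 5 in maturing neutrophil, 40 to 1379 in megakaryocyte, 1 to 534 in monocyte and 283 to 1603 in stem cell. No fit left out Dnmt3a mouse 1 for mature B cells, mature monocytes or maturing neutrophils, Dnmt3a mouse 2 for mature B cells or maturing neutrophils, or MxCre mouse 2 for mature B cells, since these mice had too few cells to enter them.

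Differences in class shares (Dnmt3a minus MxCre, percentage points) changed sign when mice were left out, with ranges of -0.079 to 0.44 for T, NK and innate lymphoid cell, -0.73 to 1.10 for basophil and mast cell progenitor, -0.57 to 2.36 for early multipotent progenitor, -3.35 to 2.28 for granulocyte progenitor, -0.037 to 0.12 for marrow stroma and endothelium, -0.28 to 1.02 for mature monocyte and macrophage and -4.25 to 1.79 for maturing neutrophil. The edgeR test of cell numbers gave a log2 difference of 7.11 for B-lymphoid progenitor. The edgeR test of cell numbers without Dnmt3a mouse 4 gave a log2 difference of 4.42 for B-lymphoid progenitor, -0.55 for T, NK and innate lymphoid cell, 0.062 for granulocyte progenitor, -0.34 for mature monocyte and macrophage and -3.42 for maturing neutrophil. The difference was also of the other sign without Dnmt3a mice 1 and 4, at -0.062 for T, NK and innate lymphoid cell and 4.67 for granulocyte progenitor. The difference was also of the other sign with resolution 2, at -0.26 for basophil and mast cell progenitor and 2.35 for granulocyte progenitor. The difference was also of the other sign with doublets kept, at -0.026 for marrow stroma and endothelium. For the Dnmt3a transcript the log2 difference with each mouse left out ran from -0.089 to 0.32 in basophil and mast cell, -0.16 to 0.30 in erythroid, 0.39 to 0.52 in granulocyte, -0.22 to 0.012 in megakaryocyte, 0.43 to 0.51 in monocyte and 0.30 to 0.41 in stem cell. It was called by DESeq2 in stem cell (0.34) and all cells (0.31), and in stem cell also without Dnmt3a mouse 2 (adjusted p = 0.03437). It was not called with only the 2 groups in the fit in granulocyte (0.48) and monocyte (0.48), without Dnmt3a mice 1 and 4 in granulocyte (0.35) and monocyte (0.40) and with the Rps29 covariate in granulocyte (0.56) and monocyte (0.50). It had the other sign with the Rps29 covariate in megakaryocyte (0.019), basophil and mast cell (-0.19) and erythroid (0.33), without Dnmt3a mice 1 and 4 in basophil and mast cell (-0.0297) and erythroid (0.31), with doublets kept in erythroid (0.11) and with classes from Leiden resolution 2 in erythroid (0.027). Of the named genes called, resolution 2 ended the call of 24 of 67 in stem cell, 12 of 23 in megakaryocyte, 5 of 16 in early multipotent, 5 of 10 in basophil and mast cell, 1 of 20 in granulocyte and 0 of 12 in monocyte cells, and the fit of only the 2 groups that of 9 of 73, 10 of 29, 1 of 16, 2 of 11, 6 of 20 and 5 of 12, and of 19 of 21 over all cells. Among the other named genes the sign changed in Hist1h2ap in stem cell (0.66 with the Rps29 covariate), Tnfaip2 in granulocyte progenitor (0.013 with the Rps29 covariate) and Pf4 in early multipotent progenitor (0.13 with doublets kept).

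The labels number the mice within each group, and a fit with the replicate block was made. Same-numbered mice did not deviate together: the correlations of their deviations from the group means were -0.0133, -0.136 and -0.222. The numbers are therefore taken as names only. With the block the numbers of called genes were 146 in all cells, 45 in basophil and mast cell, 162 in early multipotent, 0 in erythroid, 339 in granulocyte, 82 in mature B, 0 in mature monocyte, 0 in maturing neutrophil, 395 in megakaryocyte, 274 in monocyte and 1214 in stem cell, and the log2 difference of the Dnmt3a transcript was 0.47 in monocyte (not called) and 0.11 in erythroid (other sign).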
